A study of Mus musculus with 2 samples.

Results

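The guanylate-binding proteins (GBPs) of mouse T helper 2 (Th2) memory cells are described here through 6 genes of the family, namely Gbp2b, Gbp2, Gbp3, Gbp7, Gbp6 and Gbp8. They were taken as every probe set annotated to exactly 1 of these symbols, which gave 9 probe sets of 45037 on the array and 6 genes of 18193 with a named probe set. The family was picked because its signals differed between the 2 arrays, so its ratios are a description of those arrays and carry no test. IL-5+ memory Th2 cells, which make the eosinophil growth factor interleukin-5, were set against IL-5- memory Th2 cells, with 1 array for each. Both fractions came from splenic CD4 T cells of the BALB/c strain that carried the DO11.10 T cell receptor transgene, which recognises an ovalbumin peptide. Those cells had been stimulated with the peptide for 6 days with 25 U/ml IL-2 and 100 U/ml IL-4, and moved into BALB/c nu/nu mice. Such recipients are athymic and form few T cells of their own, but keep B cells, natural killer cells and myeloid cells. After 30 days memory Th2 cells of the spleen were sorted by IL-5. The labels give neither the age or number of recipients, nor whether RNA was pooled, nor how cells were treated for the sort.

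GBPs are large GTPases of the dynamin superfamily that assemble into coats on pathogen-containing vacuoles and on bacteria, and that help to open them and to feed their contents to inflammasomes. Their genes are classical targets of interferons, above all of interferon gamma, which acts on gamma-activated sites (GAS) and, through the factor IRF1, on interferon-stimulated response elements (ISRE). Type I interferon acts on the ISRE through a complex that holds STAT2 and IRF9. T cells express GBP genes too, where they serve as markers of interferon exposure. In the mouse the family lies in a pair of gene clusters, with Gbp7, Gbp3, Gbp2b and Gbp2 on chromosome 3 and Gbp8 and Gbp6 on chromosome 5.

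The promoters are shown because the members were lower together and have this known route of control. RefSeq promoters of the build GRCm38.p6, from 250 bases before to 50 bases after the transcription start, were matched for 4 members, all on the + strand of chromosome 3. They are chr3:142594597-142594896 for Gbp2b, chr3:142620413-142620712 for Gbp2, chr3:142559794-142560093 for Gbp3 and chr3:142530086-142530385 for Gbp7. Gbp6 and Gbp8 had no entry. Gbp3 had a further entry, chr3:142560106-142560405, which held no match to either motif and is not printed. The sequences are those of the reference strain and not of BALB/c. They run 5′ to 3′, and capitals mark each match to the ISRE core GAAANNGAAA or to the GAS TTCNNNGAA, searched on both strands.
Gbp2b: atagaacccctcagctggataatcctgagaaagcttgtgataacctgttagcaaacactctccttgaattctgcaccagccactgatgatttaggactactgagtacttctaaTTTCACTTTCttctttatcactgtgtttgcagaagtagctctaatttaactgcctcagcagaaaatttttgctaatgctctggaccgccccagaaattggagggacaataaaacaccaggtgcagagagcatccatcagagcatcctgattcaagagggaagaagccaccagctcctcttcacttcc
Gbp2: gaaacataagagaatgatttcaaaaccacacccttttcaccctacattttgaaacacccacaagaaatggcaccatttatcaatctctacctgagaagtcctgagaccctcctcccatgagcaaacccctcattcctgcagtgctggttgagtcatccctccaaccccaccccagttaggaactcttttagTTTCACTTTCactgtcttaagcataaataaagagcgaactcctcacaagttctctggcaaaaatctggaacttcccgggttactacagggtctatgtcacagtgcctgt
Gbp3: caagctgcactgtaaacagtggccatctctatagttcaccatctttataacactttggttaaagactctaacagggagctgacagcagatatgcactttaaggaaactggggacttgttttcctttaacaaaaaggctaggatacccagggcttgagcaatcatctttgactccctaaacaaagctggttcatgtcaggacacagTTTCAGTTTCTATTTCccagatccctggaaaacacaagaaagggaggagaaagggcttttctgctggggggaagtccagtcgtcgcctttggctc
Gbp7: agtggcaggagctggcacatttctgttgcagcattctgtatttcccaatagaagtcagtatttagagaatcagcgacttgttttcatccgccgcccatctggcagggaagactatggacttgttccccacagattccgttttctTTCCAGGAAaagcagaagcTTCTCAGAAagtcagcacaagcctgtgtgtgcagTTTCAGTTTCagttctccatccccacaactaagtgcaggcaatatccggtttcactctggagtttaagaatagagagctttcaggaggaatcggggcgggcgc

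All 4 printed promoters, of 5 entries for these members, held the ISRE core. Each time it lay on the - strand, so that it reads TTTCNNTTTC in the printed strand. Across all 32851 RefSeq promoters of the same length, 3.44% held it. In Gbp2b the match lay 128 to 137 bases before the transcription start, and in Gbp2 it lay 50 to 59 bases before it. Both of these genes carried the letters GAAAGTGAAA. Gbp3 and Gbp7 carried GAAACTGAAA instead, 36 to 45 and 44 to 53 bases before the start. Gbp3 had a second match, GAAATAGAAA, that overlapped the first, while the Gbp3 entry that is not printed had none. The GAS was found in Gbp7 alone of these 4 promoters, at TTCCAGGAA and TTCTCAGAA, while 8.3% of all promoters held it. Neither GAS match overlapped the ISRE core of that promoter. These matches describe letters in a window of 300 bases and do not show binding.

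**Figure D1:**
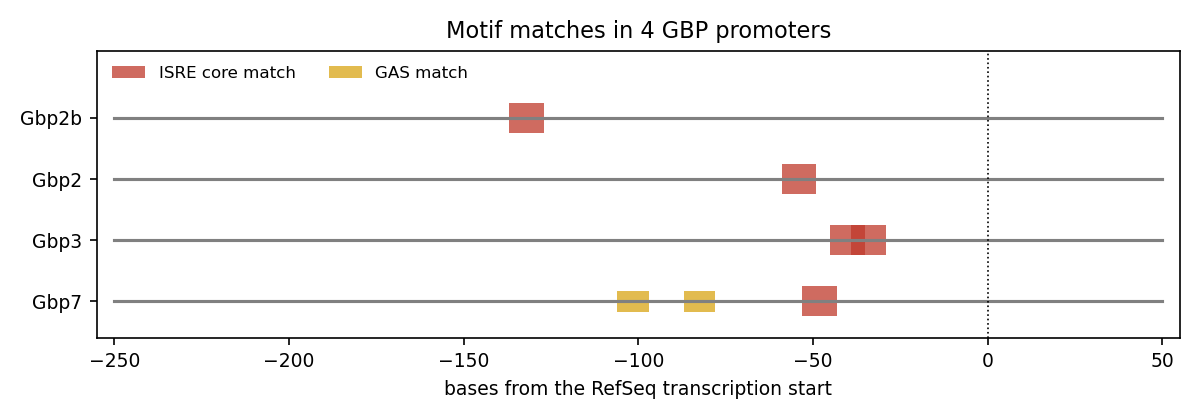
Positions of motif matches (boxes) in the 4 printed GBP promoters, in bases from the transcription start (dotted line). ISRE core matches are red and GAS matches yellow. The further Gbp3 entry, which held no match, is not drawn. Each promoter drawn has a red box upstream of the start, from 30 to 137 bases before it, and Gbp7 also has 2 yellow boxes.

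All 6 GBP genes analysed had lower signals in IL-5+ cells. Of the 6 members, 6 were lower by 2-fold or more, where 4.01% of the 13133 measured genes were (2.85% were higher by as much), and 4 were lower by 4-fold or more, where 0.457% of genes were. Nothing is read from these shares, since the members were picked on this contrast. In RNA from many cells, fewer cells that express the GBPs and less GBP RNA in each cell cannot be told apart. The median log2 ratio of the 6 members, IL-5+ over IL-5-, was -2.44 (5.42-fold lower), against -0.05 over all measured genes. A gene counted as measured if either array gave it a signal above a floor of 36.3, the 40th percentile of all signals. All 9 GBP probe sets were above that floor on both arrays, so each has a ratio and none a bound. Signals are the linear intensities that the authors deposited, and because each probe set binds differently, a level of 1 probe set is set against its level on the other array. The order of signals between probe sets served only to choose a probe set for each gene and the markers to name.

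Gbp2b, earlier called Gbp1, encodes a GBP that coats the vacuole of the parasite Toxoplasma gondii. Its probe set 1420549_at had a signal of 1197 in IL-5+ cells and 11749 in IL-5- cells, which is 9.82-fold lower in IL-5+ cells (log2 ratio -3.30). This was the largest difference of the family and the 12th lowest ratio of all 13133 measured genes.

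Gbp2, which restricts growth of the same parasite in mice, followed closely. Its probe set 1435906_x_at gave 1006 in IL-5+ cells and 8735 in IL-5- cells, 8.69-fold lower. The probe set 1418240_at of the same gene gave 959.3 in IL-5+ cells and 7754 in IL-5- cells, 8.08-fold lower. The suffix _x_at marks probes that can bind related transcripts. The probe set without that suffix gave nearly the same log2 ratio, -3.01 against -3.12.

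Gbp3 lies between Gbp7 and Gbp2b on chromosome 3 and has 1 probe set, 1418392_a_at. It had a signal of 675.9 in IL-5+ cells and 2586 in IL-5- cells, 3.83-fold lower (log2 ratio -1.94).

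Gbp7, which in mouse macrophages takes part in defence against mycobacteria and other vacuolar pathogens, had the smallest difference of the 6. Its probe set 1434380_at gave 1874 in IL-5+ cells and 4462 in IL-5- cells, 2.38-fold lower, and 1425156_at gave 854.6 in IL-5+ cells and 2591 in IL-5- cells, 3.03-fold lower. Both probe sets therefore placed Gbp7 nearer to no difference than any probe set of another member, with log2 ratios of -1.25 and -1.60.

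Both members on chromosome 5 lay between these extremes. Gbp6, which like Gbp7 has been linked to bacterial defence in mouse macrophages, had signals of 657.0 in IL-5+ cells and 3294 in IL-5- cells at 1447927_at, 5.01-fold lower. At 1438676_at it had 426.6 in IL-5+ cells and 2336 in IL-5- cells, 5.48-fold lower. Gbp8 had 271.6 in IL-5+ cells and 1593 in IL-5- cells at 1418776_at, its only probe set with 1 symbol, 5.86-fold lower (log2 ratio -2.55). A further probe set, 1421104_at, is annotated to both Gbp8 and Gbp4 and was left out. Its signals, 7.6 in IL-5+ cells and 34 in IL-5- cells, were under the floor on both arrays. Gbp4, Gbp5, Gbp9, Gbp10 and Gbp11 were not analysed here.

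**Figure D2:**
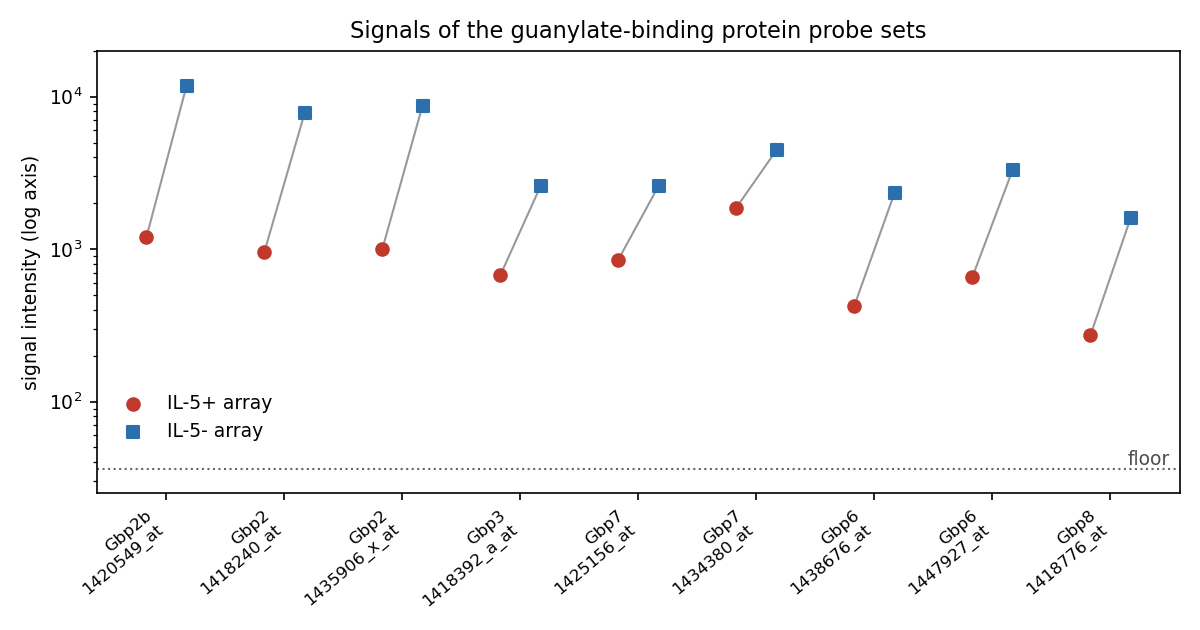
Signal intensity (log axis) of each of the 9 GBP probe sets on the IL-5+ array (red circles) and the IL-5- array (blue squares), with a line joining the values of a probe set and a dotted line at the floor of 36.3. Each IL-5+ signal lies below its IL-5- signal and all lie above the floor, from 271.6 for Gbp8 in IL-5+ cells to 11749 for Gbp2b in IL-5- cells.

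Agreement between probe sets of a gene was the only error these data allow. It leaves out variation between cell preparations, and with 1 array a group no p-value can be given. Over genes outside the family, the pooled SD of log2 ratios between probe sets of 1 gene was 0.13 at mean signals above 2000 and 0.21 from 500 to 2000, the ranges that hold all GBP probe sets. The corresponding SD of a difference between 2 probe sets was 0.19 and 0.29. Probe sets of Gbp2 differed by 0.10 and those of Gbp6 by 0.13, both within that spread. Those of Gbp7 differed by 0.35, slightly more than it.

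Several members differed from each other by more than the SD of a difference between probe sets of a gene. A gap only slightly beyond that SD is not large, as the probe sets of Gbp7 alone differed by 0.35. Binding of probes to transcripts of other members could not be checked, since probe sequences were not at hand. Gbp2b and Gbp7 were 2.04 apart in log2 ratio, so the reduction was 4.12-fold deeper for Gbp2b, and 1.70 apart with the other probe set of Gbp7. Gbp2 and Gbp3 were 1.18 apart, or 1.08 with the other Gbp2 probe set, each beyond the SD of 0.29. Gbp3 and Gbp7 were 0.68 apart, but 0.34 apart with the other probe set of Gbp7, only slightly beyond that SD. Gbp6 and Gbp8 cannot be told apart by this measure, with gaps of 0.23 and 0.10 for the 2 probe sets of Gbp6. Gbp2b and Gbp2 were 0.18 apart, within the SD of 0.19 for bright probe sets, but 0.28 apart with the other Gbp2 probe set, beyond it. Gbp3 and Gbp6 were 0.39 apart, or 0.52 with the other Gbp6 probe set. In order of size, Gbp2b and Gbp2 lay from -3.30 to -3.12, then Gbp8, Gbp6 and Gbp3 from -2.55 to -1.94, and last Gbp7 at -1.25. This order does not mark separate groups. Gbp3 and Gbp8 were 0.62 apart, whereas Gbp2 and Gbp8 were 0.57 apart, or 0.46 with the other Gbp2 probe set.

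**Figure D3:**
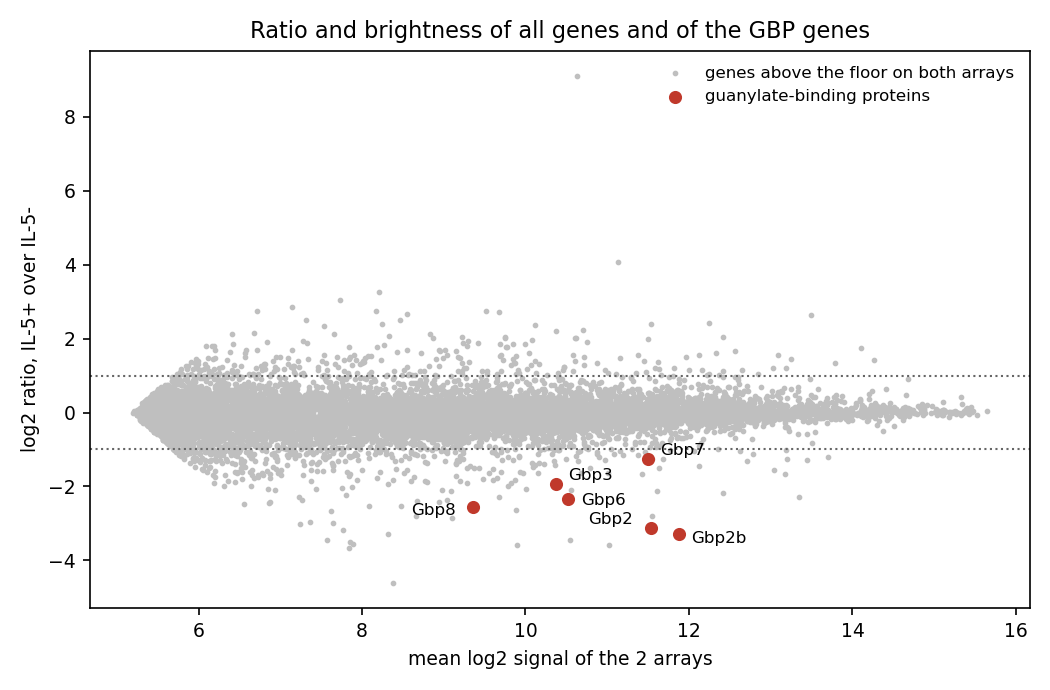
Log2 ratio of IL-5+ over IL-5- signals against mean log2 signal for each gene above the floor on both arrays (grey) and for the 6 GBP genes (red), with dotted lines at a 2-fold difference. The red points lie below the lower line, from -1.25 for Gbp7 to -3.30 for Gbp2b, on the low side of genes of like brightness.

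Gbp2b and Gbp2, which lie side by side at 1 end of the chromosome 3 cluster, had the largest differences. In the RefSeq gene order Gbp7 (-1.25) was followed by Gbp3 (-1.94), Gbp2b (-3.30) and Gbp2 (-3.12). Genes beside the clusters with signals above the floor on both arrays differed little. Of the 3 nearest protein-coding genes on each side of both clusters, 12 in all, 8 had a named probe set. Among these, 0 reached 2-fold, with log2 ratios or bounds from -0.17 to 0.40. The bounds are those of Bmpr1b (39.7 in IL-5+ cells and 7.1 in IL-5- cells) and Abcg3. Both are so near the floor that a larger difference could be hidden. Next to Gbp2 lies Kyat3, an aminotransferase gene, with 510.2 in IL-5+ cells and 572.6 in IL-5- cells (log2 ratio -0.17). It is followed by Gtf2b, which encodes a general transcription factor, at 0.26, and Pkn2, a protein kinase gene, at 0.24. On the other side Pdlim5 stood at -0.10 and Unc5c at 0.26. Next to Gbp8 lies Abcg3, which passed the floor in IL-5+ cells alone (47.8, against 32.7 in IL-5- cells), and beyond Gbp6 lies Lrrc8c at 0.22.

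**Figure D4:**
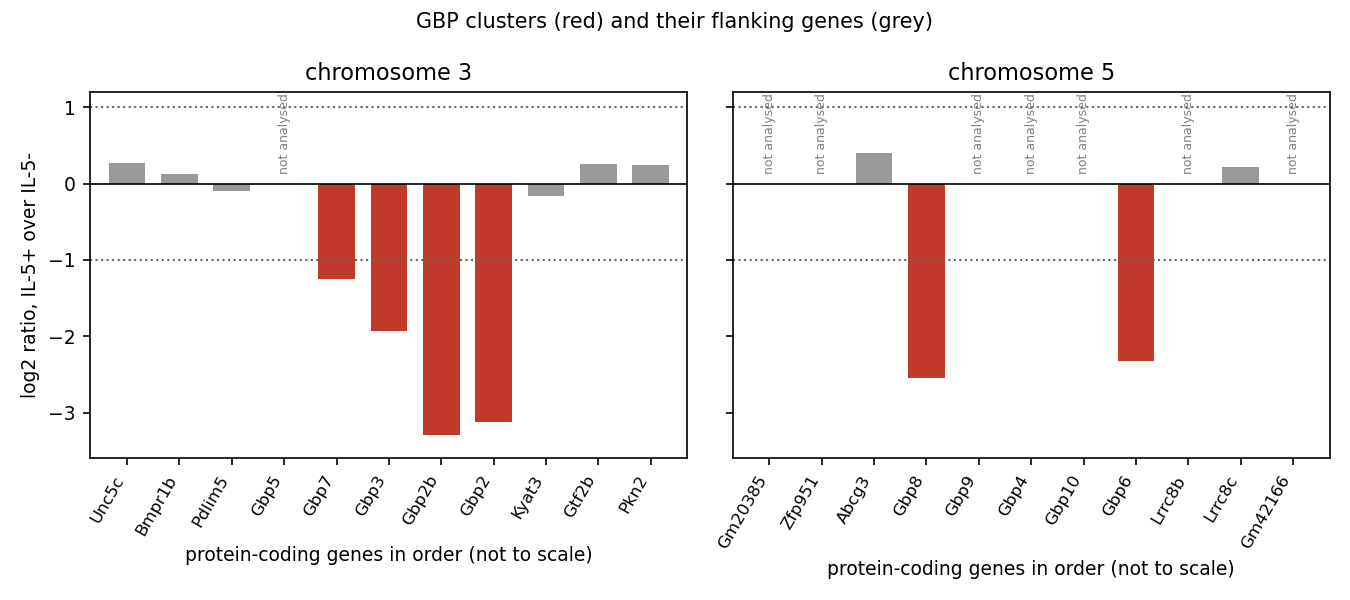
Log2 ratio of IL-5+ over IL-5- for protein-coding genes in RefSeq order (not to scale) at the GBP clusters of chromosome 3 and chromosome 5, with GBP genes in red, flanking genes in grey and dotted lines at a 2-fold difference; the bars of Bmpr1b and Abcg3 are bounds. The red bars reach from -1.25 to -3.30, whereas the grey bars stay between -0.17 and 0.40.

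The interferon route to the GBP genes was uneven in the same cells. Of 8 measured genes of the interferon gamma pathway, 1 was at least 2-fold lower and 0 were higher, with a median log2 ratio of -0.28. That gene was Ifngr2, the signalling chain of the interferon gamma receptor, with 129.6 in IL-5+ cells and 413.1 in IL-5- cells, 3.19-fold lower, and its other probe set gave -1.45. Ifngr1, the ligand-binding chain, was at -0.27, with 1054 in IL-5+ cells and 1268 in IL-5- cells. Ifng, the cytokine itself, had 17909 in IL-5+ cells and 22634 in IL-5- cells (log2 ratio -0.34). Socs1, a feedback inhibitor of the pathway, had 758.5 in IL-5+ cells and 1431 in IL-5- cells (-0.92), and Pias1, another inhibitor of the pathway, stood at -0.29.

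Of the 6 genes of the type I interferon receptor pathway, 2 were at least 2-fold lower and 0 higher (median -0.46). They were Usp18, a feedback inhibitor that is itself induced by interferon (434.3 in IL-5+ cells and 1486 in IL-5- cells), and Stat2 (108.5 in IL-5+ cells and 235.2 in IL-5- cells), which stood at -2.06 at its other probe set and came under 2-fold with an added constant (-0.91). Irf9, the partner of STAT2, was at -0.60, and Ifnar2, a receptor chain, at -0.32. Tyk2, also of this list, stood at -0.19, but at 1.29 at its other probe set, so its direction depends on the probe set. Of the 7 measured interferon regulatory factors, 3 were at least 2-fold lower and 0 higher (median -0.64). Irf1, the factor that acts on the GBP promoters, had 2130 in IL-5+ cells and 5050 in IL-5- cells, 2.37-fold lower. Irf2, which competes for the same element, stood at -1.09, and Irf8, which also binds such elements, at -1.06 with a second probe set at -0.77. With each array divided by its median Irf8 stood at -0.98, under 2-fold. Irf7, which amplifies type I responses, was at -0.64.

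Other interferon-induced GTPases were lower together with the GBPs. Of 5 measured genes of the list of immunity-related GTPases, which act at vacuoles beside the GBPs, 5 were at least 2-fold lower (median -1.67). Iigp1 had 602.9 in IL-5+ cells and 7163 in IL-5- cells (log2 ratio -3.57, and -3.38 at its other probe set). Irgm2, a regulatory member, was at -1.90, Igtp, another regulatory member, at -1.67, and Ifi47 at -1.27. Among antiviral interferon-stimulated genes, 10 of 14 measured were at least 2-fold lower and 0 higher (median -1.42). They included Ifit3 (68.8 in IL-5+ cells and 814.4 in IL-5- cells), the dynamin-like Mx1 (68.8 in IL-5+ cells and 782.8 in IL-5- cells) and Rsad2 at -2.54, or -1.56 at the probe set with the smallest difference. Mx2 passed the floor in IL-5- cells alone, so it was lower in IL-5+ cells by at least 7.15-fold. Of 14 measured other targets of interferon gamma, 4 were at least 2-fold lower and 0 higher (median -0.71). These were the chemokine gene Cxcl10 (-3.30), Cxcl11, which passed the floor in IL-5- cells alone (log2 bound -1.53), the immunoproteasome gene Psmb9 (-1.45) and the peptide loading gene Tapbp (-1.03, -0.76 at its other probe set, and -0.96 with each array divided by its median).

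The lists of inflammasome, prenylation, autophagy conjugation and dynamin-related genes, whose products also act with GBPs or resemble them, had medians from 0.01 to 0.31. Of 7 measured inflammasome genes, 0 were at least 2-fold lower and 1 was higher, namely Il18, an inflammasome substrate, with 539.3 in IL-5+ cells and 156.3 in IL-5- cells. Their median of 0.31 was the bound of Aim2, which passed the floor in IL-5+ cells alone (44.9, against 29.8 in IL-5- cells). This median turned to -0.29 with a floor at the 60th percentile. Pycard, the inflammasome adaptor, was at -0.66, Gsdmd, the pore-forming substrate, at -0.65 and Casp1 at 0.60. Of 6 genes for prenylation, the lipid attachment that anchors some GBPs in membranes, 0 differed by 2-fold (median 0.08), with Zmpste24 at 0.30, Pggt1b at -0.29 (up to 0.33 at another probe set), Icmt at 0.22 and Rce1 at 0.12. Of 11 autophagy conjugation genes, needed for GBPs to reach parasite vacuoles in mouse cells, 0 were lower and 1 was higher (median 0.05). It was Gabarapl1, with 7640 in IL-5+ cells and 2613 in IL-5- cells (1.55, and 1.66 at its other probe set). The other named members were Atg3 at 0.36, Atg12 at 0.35, Atg5 at -0.24 and Atg7 at 0.19, with another Atg7 probe set at 1.95. Of 8 measured atlastins and other dynamin-related GTPases, relatives of the GBPs, 0 differed by 2-fold (median 0.01). The largest were Atl3 at -0.51, Dnm3 at 0.36, Mfn1 at 0.26 and Dnm2 at -0.13. Probe sets of Atl3 ranged from -0.93 to 0.13, those of Dnm3 from -0.79 to 0.36 and those of Dnm2 from -0.25 to 0.58, so the direction of each depends on the probe set.

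**Figure D5:**
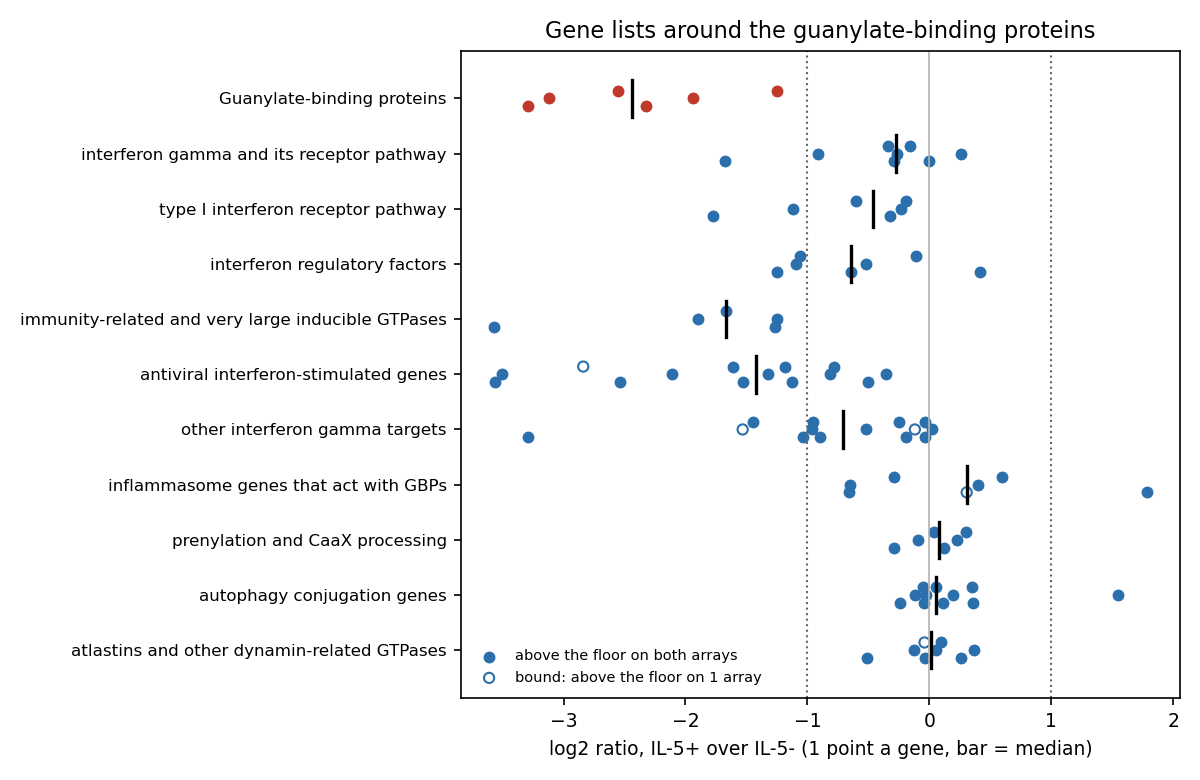
Log2 ratio of IL-5+ over IL-5- for each measured gene (points) of the GBP family (red) and 10 other gene lists (blue), with open circles for bounds, a black bar at each median and dotted lines at a 2-fold difference. The GBP median is -2.44, followed by -1.67 for immunity-related GTPases and -1.42 for antiviral genes, while the medians of the bottom 4 lists lie between 0.01 and 0.31.

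The ISRE core was also counted in the RefSeq promoters of measured genes outside the GBP family. It stood in 8.29% of 398 genes whose IL-5+ signal was lower by 2-fold or more, in 4.76% of 294 higher by as much and in 3.68% of all 10588. The GAS stood in 11.3% of the lower genes, 8.16% of the higher genes and 8.47% of all. These shares are descriptions with no test.

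The identity of the cells was checked through markers. Il5, the sorting marker, had 37085 in IL-5+ cells and 67.4 in IL-5- cells. The fractions also differed in other Th2 cytokines, as 3 of 4 measured Th2 markers, Il5 included, were at least 2-fold higher in IL-5+ cells. Il13 had 28724 in IL-5+ cells and 4639 in IL-5- cells (6.19-fold), and Il4 had 32261 in IL-5+ cells and 9637 in IL-5- cells (3.35-fold). Gata3, the lineage factor of Th2 cells, had 5968 in IL-5+ cells and 3570 in IL-5- cells. The summed signal of 5 measured T cell core markers was 20426 in IL-5+ cells and 31478 in IL-5- cells. All 5 were lower in IL-5+ cells, with log2 ratios from -0.81 to -0.05. The brightest were Cd3d, with 9115.5 in IL-5+ cells and 13553 in IL-5- cells, and Cd3g, with 5471.5 in IL-5+ cells and 8947 in IL-5- cells. Cd4 differed least, with 454.5 in IL-5+ cells and 471.0 in IL-5- cells.

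Markers of other cells that express GBPs are given next, each set against its own level on the other array. The sums are over measured markers alone. They add signals of different probe sets, so a sum is compared only between the arrays. For monocytes and macrophages 5 of 10 markers were measured, with a sum of 286.8 in IL-5+ cells and 344.2 in IL-5- cells, and Cd14, Cd163, Itgam, Marco and Mpeg1 were under the floor on both arrays. The brightest were Csf1r, with 105.6 in IL-5+ cells and 124.5 in IL-5- cells, and Cd68, with 109.1 in IL-5+ cells and 75.8 in IL-5- cells. Probe sets of Csf1r ranged from -0.75 to -0.24 in log2 ratio. Dendritic cell and MHC class II markers, of which 7 of 8 were measured and Flt3 was under the floor, summed to 637.8 in IL-5+ cells and 892.6 in IL-5- cells, 1.40 times as much in IL-5- cells. Among them H2-Aa was 3.05-fold lower in IL-5+ cells, with 51.0 in IL-5+ cells and 155.8 in IL-5- cells, and its other probe set gave -1.32. The brightest were H2-Ab1, with 156.6 in IL-5+ cells and 250.4 in IL-5- cells, and Cd74, with 139.7 in IL-5+ cells and 163.9 in IL-5- cells. Another H2-Ab1 probe set gave a log2 ratio of -1.05. Itgax passed the floor in IL-5- cells alone, with 18.0 in IL-5+ cells and 70.1 in IL-5- cells. Zbtb46 had 149.7 in IL-5+ cells and 79.1 in IL-5- cells. Its probe sets ranged from -0.33 to 0.92 in log2 ratio, so its direction depends on the probe set.

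The 3 measured B cell markers summed to 131.5 in IL-5+ cells and 945.7 in IL-5- cells. Most of the IL-5- sum was Ighm (64.4 in IL-5+ cells and 813.4 in IL-5- cells), whose probe sets ranged from -3.66 to 0.16. Pax5, a B cell lineage factor, passed the floor in IL-5- cells alone, with 6.4 in IL-5+ cells and 70.2 in IL-5- cells. Ms4a1, which encodes CD20, had 60.7 in IL-5+ cells and 62.1 in IL-5- cells, and Cd79a, Cd79b and Blnk were under the floor on both arrays. The 2 natural killer cell markers measured, Klrd1 and Fcer1g, summed to 206.5 in IL-5+ cells and 96.4 in IL-5- cells, and Ncr1, Klra8 and Tyrobp were under the floor. Of the neutrophil markers Elane alone was measured, with 62.2 in IL-5+ cells and 48.1 in IL-5- cells, and Mpo, S100a8 and S100a9 were under the floor. The CD8 markers Cd8a and Cd8b1 summed to 347.1 in IL-5+ cells and 245.1 in IL-5- cells. The part of the B cell and MHC class II markers in the GBP differences was not tested.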

How the data were processed

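RNA from each fraction of memory Th2 cells (IL-5+, IL-5-) was labelled with biotin and hybridised to 1 Affymetrix array each, per the labels' protocols. The authors deposited a linear signal intensity for every probe set, which GCOS, the Affymetrix scanner software, computed according to the submitters' processing notes. The software version, scaling target and genome build were not given in the sources used here. Intensities ran from 0.1 to 51950. Their mean, trimmed of 2% at each end, was 495 for IL-5+ and 496 for IL-5- cells, so ratios are relative to the rest of the array.

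Of 45037 probe sets, 34945 had 1 gene symbol in the platform annotation, 932 several and 9160 none. Matching 34741 of them by entrez identifier to RefSeq (GRCm38.p6) changed 0 symbols. A floor at the 40th percentile of all signals (36.3) replaced every signal under it before log2 was taken. For each gene the probe set brightest on average (mean log2) was used, and the gene was called lower or higher at a 2-fold difference. A gene above the floor on 1 array has a bound, and 1 under it on both has no ratio. With 1 array a group no test was made, and precision is limited by the number of arrays.

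The members, gene lists and marker lists were chosen with earlier results of these data known. Named genes were all members, up to 4 measured genes with the largest ratio from each list, the 2 brightest markers of each list and the 3 protein-coding genes flanking each cluster side; other markers and other genes of the lists were named after their values were seen. A search for genes with signals nearest to the brightest member, also part of the rule, was dropped because levels of different probe sets cannot be compared. Counting was tested on simulated arrays. Alternatives were 3 other scalings, 3 other treatments of dim signals by floor, an added constant in their place, 2 other choices of probe sets, and thresholds of 1.5-fold and 3-fold. Computation used numpy 2.4.6 and pandas 2.3.3 under Python 3.11.15, with scipy 1.17.1 for ranks, statsmodels 0.14.6 for loess and matplotlib 3.10.9 for figures.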

Additional observations from a re-analysis of the deposited data

How the results depend on the processing

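All 63 ratios of the 9 GBP probe sets under other scalings and treatments of dim signals stayed within the SD between probe sets of the reported value, from -3.31 to -1.17. The 3 other treatments by floor could not change these ratios, since every GBP signal was above 112.8, the highest of those floors. Division by the array median shifted all of them by the same amount. Only the remaining settings could change GBP ratios relative to each other. The family median ranged from -2.55 to -2.33 over the alternatives. All 6 members were at least 2-fold lower in each alternative but 2. When probe sets that may bind several transcripts (suffix _s_at, _x_at or _a_at) were dropped the count was 5, as Gbp3 has no other, and at 3-fold it was 5, as Gbp7 fell short. Counts over all genes moved with the floor and the threshold. They were 1572 lower and 1325 higher with a floor at the 20th percentile, 226 and 183 with a floor at the 60th, 2314 and 2058 with no floor, 1563 and 1036 at 1.5-fold, and 143 and 91 at 3-fold, against 526 and 374. The median of other interferon gamma targets was -0.39 with a floor at the 20th percentile and -0.25 with an added constant, as dim genes enter or shrink there. That of inflammasome genes was -0.29 with a floor at the 60th percentile, where Aim2 and Nlrp3 were under the floor on both arrays and dropped out. The median of the type I interferon receptor pathway was -0.67 with only probe sets without suffix. Irf9, measured by an _a_at probe set alone, dropped out there. The other list medians moved by less than 0.21. Of 27 genes of these lists that differed by 2-fold, 3 came under it in some alternative, namely Irf8 and Tapbp (-0.98 and -0.96 with division by the array median, -0.91 and -0.90 with the median of probe sets) and Stat2 (-0.91 with an added constant), while 4 had no ratio in 1 alternative, namely Irf1, Irf2 and Mx1 with only probe sets without suffix, and Cxcl11 under the higher floor (60th percentile). No paired analysis was possible because each group has 1 array. Saturation and background of single probes cannot be read from the deposited signals.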
